A study of Homo sapiens with 24 samples.

Results

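The genes described here are the 5 NF-kappaB subunits, NFKB1, NFKB2, REL, RELA and RELB, and 5 targets that feed back on the pathway or lie downstream of it, NFKBIA, TNFAIP3, BIRC2, BIRC3 and TNFAIP2. They were picked by symbol, 10 of the 48162 genes in the count table, and all 10 were found. The group was chosen on results of the comparison of PGCC with parental cells, so that comparison is given below as a description, without a test. RNA-seq was made of PPC1, an established human prostate cancer cell line, in 4 conditions of 6 libraries each, 24 in all. Parental cells were neither irradiated nor filtered and were collected on day 5. PGCC, polyploid giant cancer cells, came from plates that received 8 Gy on day 2, and were the cells that a 20 micron filter held back on day 5. Each population was also collected after 5 h in 5 µM LCL521, a pro-drug that inhibits acid ceramidase (ASAH1). The days are those of the series' design text. The methods of the study put the exposure on day 3. Its discussion has PGCC collected 3 days after irradiation, which is day 5 when irradiation is on day 2. Irradiation, cell size and filtration changed together between the populations, and their parts in a difference cannot be told apart. The whole experiment was run 6 times with all conditions in parallel, which gives the replicate numbers. Levels are CPM, counts scaled to a common library size, so more cells with a transcript and more of it per cell cannot be told apart either.

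NF-kappaB is a family of transcription factors that act as pairs of subunits. In the canonical branch, cytokine or stress signals activate the IkappaB kinase complex, IkappaB proteins such as the product of NFKBIA are degraded, and pairs holding RELA or REL enter the nucleus. In the non-canonical branch, the kinase encoded by MAP3K14 drives processing of the NFKB2 precursor, and RELB pairs with its product. NFKBIA, TNFAIP3, NFKB2, RELB and BIRC3 are themselves induced by NF-kappaB: NFKBIA holds the subunits in the cytoplasm, TNFAIP3 encodes a ubiquitin-editing enzyme that damps the signal, and the ubiquitin ligases encoded by BIRC2 and BIRC3 act at the receptors and keep MAP3K14 low.

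Promoter sequence is shown because feedback within this group acts through kappaB sites, the decameric DNA element that the subunits bind. RefSeq promoters (GRCh38.p14) were given for 9 of the 10 members, without RELB, as 14 promoters, and the 250 bases upstream of each start were searched on both strands for the kappaB consensus. A match was found in 7 of these promoters, belonging to 6 members: NFKB1, NFKB2, REL, NFKBIA, TNFAIP3 and BIRC3. Of all 35116 promoters of this length, 9.96% held a match, and 11.8% of 27305 genes had a promoter with a match. For each of the 6 members 1 matching promoter is shown. NFKB2 had a further one, not shown, with matches that began 176 and 21 bases upstream. NFKB1 and NFKB2 each also had a promoter without a match. The stretches below are written 5′ to 3′ on the strand of the gene, with matching bases in capitals and overlapping matches run together.
TNFAIP3, chr6:137867182-137867223, plus strand: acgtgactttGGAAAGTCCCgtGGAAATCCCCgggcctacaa
BIRC3, chr11:102317275-102317368, plus strand: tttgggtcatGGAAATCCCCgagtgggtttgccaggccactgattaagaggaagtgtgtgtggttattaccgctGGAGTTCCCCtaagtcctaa
NFKB2, chr10:102394461-102394519, plus strand: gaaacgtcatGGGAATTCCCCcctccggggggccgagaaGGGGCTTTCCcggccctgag
NFKBIA, chr14:35404811-35404840, minus strand: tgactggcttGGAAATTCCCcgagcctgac
NFKB1, chr4:102501300-102501329, plus strand: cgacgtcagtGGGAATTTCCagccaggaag
REL, chr2:60881517-60881547, plus strand: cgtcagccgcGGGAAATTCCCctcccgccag
The matches of TNFAIP3 began 67 and 55 bases upstream of its start and those of BIRC3 199 and 135 bases upstream. The promoters of RELA, BIRC2 and TNFAIP2 held none in this window. These are matches of letters, and binding was not measured.

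Between 14835246 and 19906601 reads were counted on genes per library, and 3 counts corresponded to 0.151 to 0.202 CPM. All 4 libraries of replicate 4 and all 4 of replicate 5 stood apart on the second principal component, at 13.4 to 51.2 against -30.5 to -4.11 in the other 16. Their mitochondrial share was 4.10% to 5.33%, against 0.954% to 4.55%. Because this split moves with most members, values are given with and without these replicates. The epithelial keratins KRT8 and KRT18 were at 50.6 to 222.4 and 144.3 to 268.3 CPM, CDH1 at 1.06 to 6.50 CPM and EPCAM at 0.852 CPM or less. Between the treated populations KRT8 was higher in PGCC (log2 fold change 1.51, adjusted p = 7.87e-07), and KRT18 (-0.38, adjusted p = 0.00299) and CDH1 (-1.18, adjusted p = 0.00132) were lower. HOXB13, a prostate lineage factor, was at 570.0 to 905.8 CPM in parental libraries and 307.5 to 548.0 CPM in PGCC libraries (-0.82 among treated libraries, adjusted p = 4.8e-06), and KLK2, KLK3 and FOLH1 had 0 counts in every library. The summed CPM of 6 leukocyte markers was 0.590 to 3.21 in parental libraries and 3.18 to 4.95 in PGCC libraries, with PTPRC at 0.354 to 4.03 CPM, CD14, CD79A and LYZ at no more than 0.768, 0.710 and 0.703 CPM, and CD3E and CD68 at or near 0. PTPRC passed the test between the LCL521-treated populations at a log2 fold change of 1.25 (adjusted p = 0.0109). The cultures were of 1 cell line, and the part of these marker genes in the results below was not tested.

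Among the subunits, NFKB2 and RELB, the pair of the non-canonical branch, were higher in PGCC, and RELA did not move. NFKB2 (ENSG00000077150, hg19 chr10:104153867-104162281, plus strand) lay between 51.1 and 84.9 CPM in parental cells, with a median of 66.9, and between 91.1 and 188.4 CPM in PGCC, with a median of 158.4. With LCL521 it lay between 50.3 and 79.7 CPM (median 55.5) in parental cells and between 85.6 and 160.2 CPM (median 147.1) in PGCC. Every PGCC library was above every parental library, with the drug as well as without it. The fitted log2 fold change was 1.16 ± 0.18 (SE) without the drug. In the 12 LCL521-treated libraries, which were not in the contrast that chose the group but came from the same 6 experiments, it was 1.15 ± 0.17 (2.22-fold, adjusted p = 5.77e-05). These and later adjusted p-values are Benjamini-Hochberg values of edgeR's quasi-likelihood test over all genes tested, with a threshold of 0.05.

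RELB (ENSG00000104856, hg19 chr19:45504688-45541452, plus strand) lay between 11.4 and 22.8 CPM in parental cells, with a median of 15.8, and between 15.5 and 47.0 CPM in PGCC, with a median of 41.3. With LCL521 the range was 9.32 to 18.7 CPM (median 15.1) in parental cells and 18.3 to 44.3 CPM (median 40.4) in PGCC. The ranges overlapped through PGCC replicates 4 and 5, at 20.6 and 15.5 CPM, without the drug, and with it through replicate 5 alone, at 18.3 CPM. RELB was nevertheless above its same-numbered parental library in 6 of 6 experiments in each comparison. Its log2 fold change was 1.06 ± 0.27 (SE) without LCL521 and 1.23 ± 0.24 among treated libraries (2.35-fold, adjusted p = 0.0007).

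RELA (ENSG00000173039, hg19 chr11:65421067-65430565, minus strand), the main activating subunit of the canonical branch, stayed between 82.6 and 109.8 CPM in all 24 libraries. Its median was 94.0 CPM in untreated and 94.1 in LCL521-treated parental cells, and 92.2 and 94.7 CPM in untreated and treated PGCC. The log2 fold change was -0.04 ± 0.08 (SE) without the drug and 0.0028 ± 0.07 with it (95% interval -0.14 to 0.15, adjusted p = 0.978), and its sign depended on the scaling.

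NFKB1 (ENSG00000109320, hg19 chr4:103422486-103538459, plus strand), the precursor gene of the canonical partner subunit, lay between 37.2 and 57.7 CPM in parental cells, with a median of 52.9, and between 23.1 and 80.5 CPM in PGCC, with a median of 64.2. With LCL521 it lay between 35.6 and 59.0 CPM (median 48.4) and between 23.5 and 71.1 CPM (median 58.9), respectively. Its PGCC libraries fell on either side of the parental ones: replicates 1, 2, 3 and 6 were above their parental partners and replicates 4 and 5 below. Among treated libraries the log2 fold change was 0.13 ± 0.24 (SE, adjusted p = 0.687), and without replicates 4 and 5 it was 0.34 (adjusted p = 0.00788). These replicates were the ones below their partners and were left out after their values were seen, so the latter value is not read as a test. REL (ENSG00000162924, hg19 chr2:61108656-61150645, plus strand), a canonical subunit best known from lymphoid cells, was the lowest subunit at 2.80 to 6.56 CPM (median 4.79) in parental cells and 2.86 to 7.79 CPM (median 6.18) in PGCC. With LCL521 it was at 2.79 to 5.54 CPM (median 4.88) in parental cells and 3.73 to 8.27 CPM (median 6.51) in PGCC, above its partner in 6 of 6 experiments although the ranges overlapped. The log2 fold change was 0.51 ± 0.23 (SE, adjusted p = 0.0744), and with the replicate number as a block it was 0.51 ± 0.12 (adjusted p = 0.00552).

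**Figure D1:**
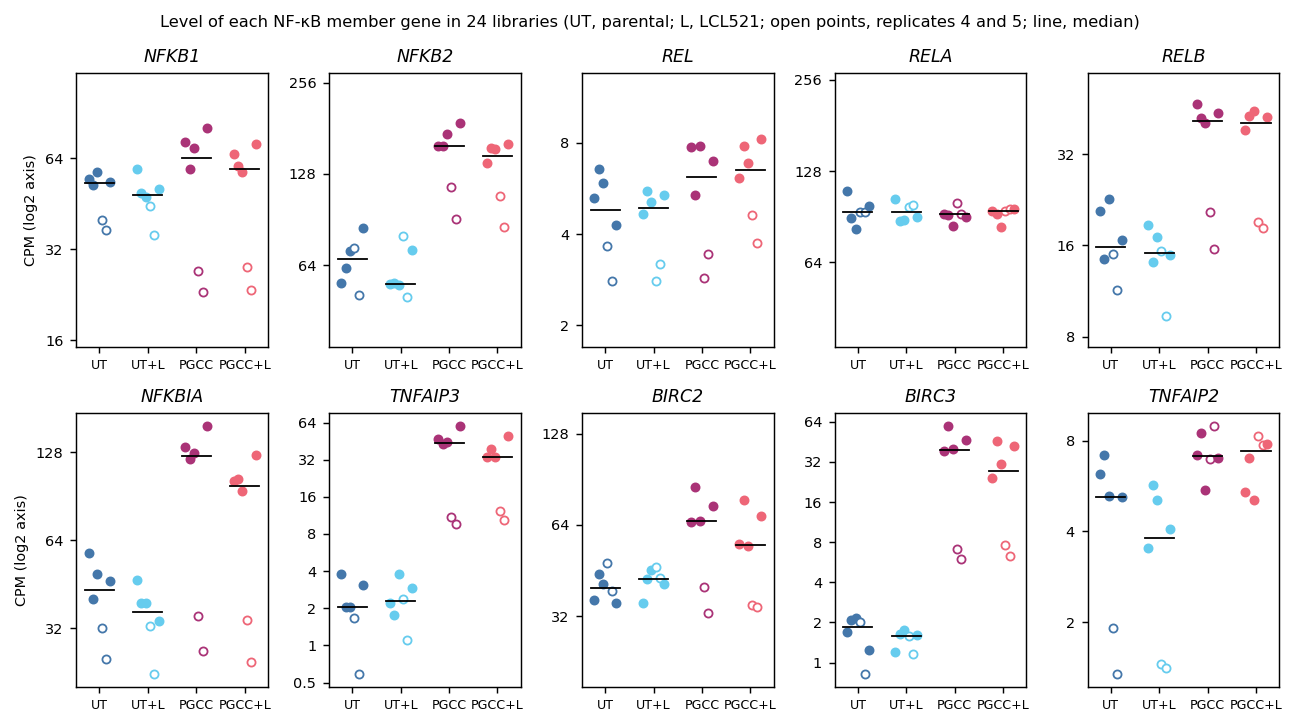
Level of each of the 10 members in the 24 libraries, in CPM on a log2 axis, for parental cells (UT) and PGCC without and with LCL521 (L). Points are libraries, open points are replicates 4 and 5, and lines are medians of 6. TNFAIP3, BIRC3 and NFKB2 show PGCC points above every parental point, RELA is level, and the open points lie low in PGCC for all but RELA and TNFAIP2.

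Per length (RPKM, CPM divided by gene length in kilobases), the 5 subunits summed to between 61.0 and 80.1 RPKM in parental cells and between 72.0 and 130.2 RPKM in PGCC. NFKB2 made up 29.6% ± 4.0 (SD, n = 6) of that sum in parental cells, and its lowest and highest libraries were at 23.5% and 34.2%. In PGCC its share was 44.1% ± 2.4, from 40.8% to 46.8%, so the ranges did not overlap. The share of RELA went from 41.5% ± 4.8 in parental cells to 28.4% ± 8.1 in PGCC, and here PGCC replicates 4 and 5, at 37.0% and 40.5%, lay within the parental range of 34.7% to 48.5%. RELA itself had a mean of 29.8 RPKM in parental cells and 28.9 RPKM in PGCC, so its share fell because the sum rose. With LCL521 the NFKB2 share was 28.5% ± 3.9 in parental cells and 42.2% ± 2.3 in PGCC, again without overlap. These are shares of RNA, and protein and processing were not measured.

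**Figure D2:**
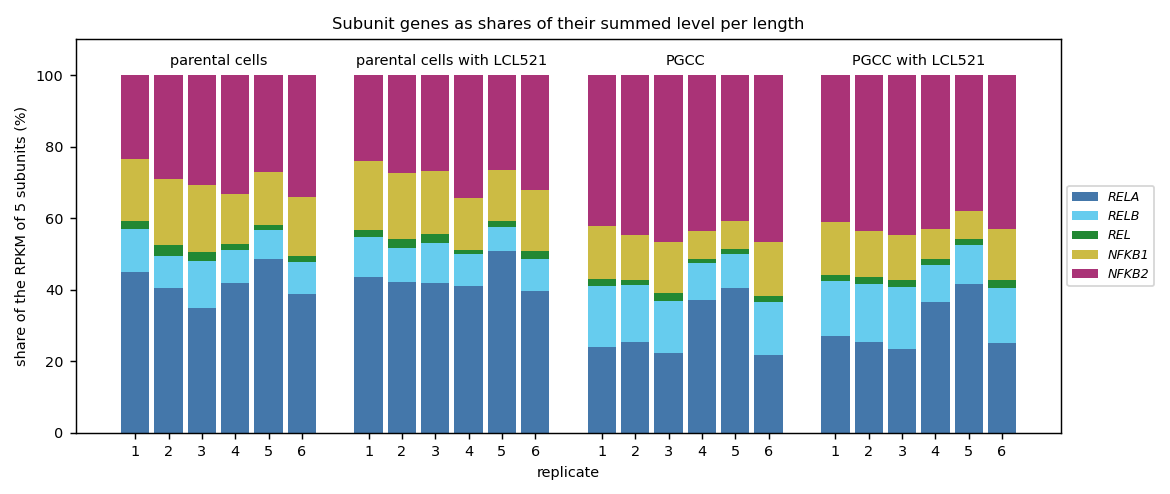
Share of each subunit gene in the summed RPKM of the 5 subunits (percent, vertical axis), 1 bar for each of the 24 libraries, grouped by condition and numbered by replicate. NFKB2 takes 40.8% to 46.8% in PGCC and 23.5% to 34.2% in parental cells, while RELA takes 37.0% and 40.5% in PGCC replicates 4 and 5 and 21.8% to 25.2% in the other PGCC libraries.

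The feedback inhibitors were both higher in PGCC, TNFAIP3 far more than NFKBIA. TNFAIP3 (ENSG00000118503, hg19 chr6:138188351-138204449, plus strand) was near the bottom of the group in parental cells, between 0.583 and 3.81 CPM with a median of 2.04, or 10 to 70 counts per library. In PGCC it lay between 9.69 and 60.5 CPM with a median of 44.0. With LCL521 the values were 1.10 to 3.83 CPM (median 2.29) in parental cells and 10.3 to 49.4 CPM (median 33.9) in PGCC. No PGCC library came down to the parental range in either comparison, even in replicates 4 and 5. The log2 fold change was 4.04 ± 0.51 (SE) without the drug and 3.67 ± 0.41 among treated libraries (12.7-fold, 95% interval 6.96 to 23.3-fold, adjusted p = 5.51e-06). An antisense gene, RP11-356I2.4, overlaps TNFAIP3 and had between 0 and 10 counts. Whether counting used strand is not given in the sources used here.

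NFKBIA (ENSG00000100906, hg19 chr14:35870717-35873955, minus strand) lay between 25.2 and 57.7 CPM in parental cells (median 43.4) and between 26.7 and 157.6 CPM in PGCC (median 124.0). With LCL521 it was at 22.3 to 46.9 CPM (median 36.5) in parental cells and 24.6 to 125.3 CPM (median 98.2) in PGCC. The overlap came from replicates 4 and 5 alone, whose PGCC values of 35.4 and 26.7 CPM exceeded their own parental libraries by a log2 difference of only 0.14 and 0.09. In the other 4 experiments the difference averaged 1.48 without LCL521 and 1.42 with it. The fitted log2 fold change was 1.27 ± 0.39 (SE) without the drug and 1.21 ± 0.34 among treated libraries (adjusted p = 0.00827).

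Of the inhibitor of apoptosis genes, BIRC3 was higher in every PGCC library, and BIRC2, its neighbour on chromosome 11, was higher in 4 of 6 experiments. BIRC3 (ENSG00000023445, hg19 chr11:102188215-102210134, plus strand) was between 0.816 and 2.17 CPM in parental cells, with a median of 1.86 and at least 14 counts per library. In PGCC it was between 5.95 and 59.9 CPM, with a median of 39.4. With LCL521 it was between 1.17 and 1.76 CPM (median 1.59) in parental cells and between 6.31 and 45.8 CPM (median 27.6) in PGCC. No parental library reached the lowest PGCC library. BIRC3 had the largest log2 fold change of the members, 4.31 ± 0.56 (SE) without the drug and 4.15 ± 0.48 among treated libraries (17.7-fold, 95% interval 8.69 to 36.1-fold, adjusted p = 8.3e-06).

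BIRC2 (ENSG00000110330, hg19 chr11:102217942-102249401, plus strand) lay between 35.3 and 47.8 CPM in parental cells (median 39.8) and between 32.9 and 85.1 CPM in PGCC (median 65.7). With LCL521 it lay between 35.3 and 46.6 CPM (median 42.5) in parental cells and between 34.4 and 77.1 CPM (median 54.8) in PGCC. Replicates 4 and 5 were below their parental partners in both comparisons. Among treated libraries the log2 fold change was 0.38 ± 0.18 (SE, adjusted p = 0.0993). It passed without replicate 4 (0.51, adjusted p = 0.0308), without replicate 5 (0.48, adjusted p = 0.0413) and without both (0.67, adjusted p = 0.000798). Since these were the replicates below their partners, and their values had been seen, none of these passes is read as a test. How reads shared by BIRC2 and BIRC3, which are related genes, were assigned is not given in the sources used here.

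TNFAIP2 (ENSG00000185215, hg19 chr14:103589779-103603776, plus strand), named for its induction by tumor necrosis factor, split by replicate in the other direction. It lay between 1.34 and 7.19 CPM in parental cells (median 5.21) and between 5.48 and 8.98 CPM in PGCC (median 7.11). With LCL521 it lay between 1.41 and 5.72 CPM (median 3.81) in parental cells and between 5.08 and 8.28 CPM (median 7.39) in PGCC. The low parental values were those of replicates 4 and 5, at 1.92 and 1.34 CPM, so its difference between populations came mainly from these experiments. Among treated libraries the log2 fold change was 0.98 ± 0.31 (SE, adjusted p = 0.0163), and without replicates 4 and 5 it was 0.49, which did not pass without the block (adjusted p = 0.0629) and passed with it (adjusted p = 0.0375).

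Counted over the group, 6 of 10 members rose in PGCC among the LCL521-treated libraries (NFKB2, RELB, NFKBIA, TNFAIP3, BIRC3 and TNFAIP2) and 0 fell. All 10 passed the filter on low counts in every comparison, also where parental libraries alone were fitted. Of the 13818 genes tested, 25.0% rose and 23.9% fell. The median log2 fold change was 1.07 over the members and -0.0064 over all genes tested. With the replicate block 7 members rose, REL being added, beside 29.5% of all genes. In 3 of 10 members every treated PGCC library was above every treated parental library, as was the case for 14.4% of genes. The same 3 genes, NFKB2, TNFAIP3 and BIRC3, had no overlap without the drug, where 13.9% of genes were of that kind. Since the members were chosen on that contrast, nothing is read from the last count.

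**Figure D3:**
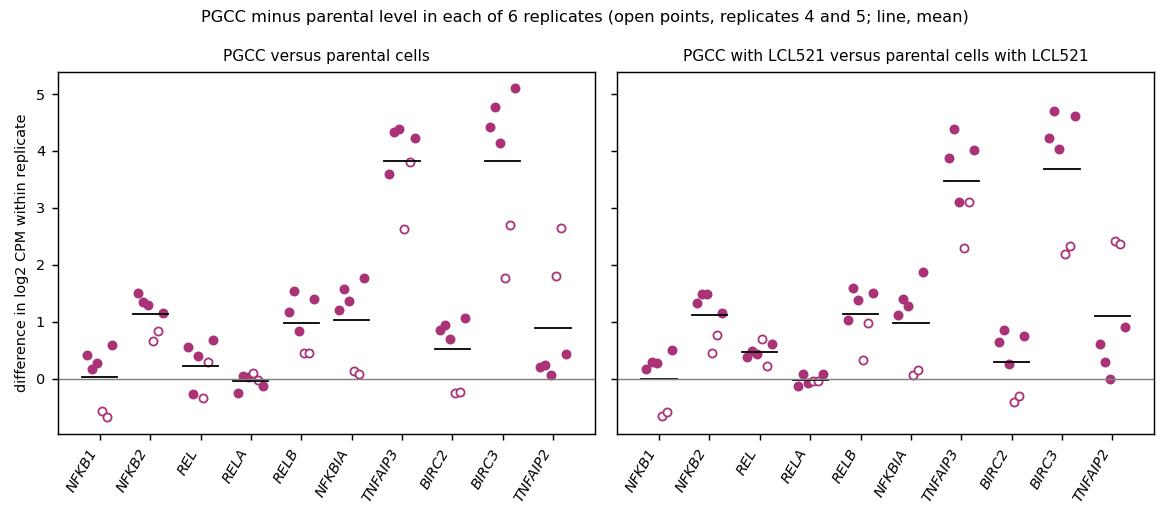
Difference in log2 CPM between PGCC and the parental library of the same replicate number, for each member, without LCL521 (left) and with it (right). Each point is 1 of 6 experiments, open points are replicates 4 and 5, and lines are means. The open points lie below the others for NFKB1, NFKB2, RELB, NFKBIA, BIRC2 and BIRC3, below 0 for NFKB1 and BIRC2, and above the others for TNFAIP2.

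Without LCL521 the mean difference between populations was smaller in replicates 4 and 5 than in the other experiments for every member but RELA and TNFAIP2. It changed sign for NFKB1 and BIRC2, and, close to 0, for REL (0.34 against -0.03) and RELA (-0.08 against 0.04). Among treated libraries the mean log2 difference of NFKB1 was -0.63 in replicates 4 and 5, against 0.31 in the other 4 experiments. For BIRC3 it was 2.26 against 4.39, and for TNFAIP3 2.70 against 3.85. TNFAIP2 went the other way, with 2.39 against 0.45. The labels do not say what set these experiments apart.

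LCL521 changed none of the members past the threshold in the tests without a block, in either population. In parental cells 0 of 13277 genes passed (0.0%), with 71 at an unadjusted p under 0.05, and DESeq2 also gave 0 calls. In PGCC 1 of 14151 genes passed (0.00707%), which was not a member, and DESeq2 gave 4. The libraries of an experiment resembled each other, and the block, which compares them within an experiment, narrowed the intervals.

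With the block, NFKBIA and BIRC3 fell in PGCC with LCL521. NFKBIA was lower than in the PGCC library of its own experiment in 6 of 6 experiments, with log2 differences from -0.42 to -0.045, and its log2 fold change was -0.28 ± 0.05 (SE, 95% interval -0.37 to -0.18, adjusted p = 0.00115). Replicates 4 and 5, where NFKBIA was hardly above its parental level, showed the smallest differences, -0.045 and -0.12. BIRC3 was lower in 4 of 6 experiments and 0.08 higher in replicates 4 and 5, with a log2 fold change of -0.31 ± 0.07 (adjusted p = 0.0208). These 2 of 10 members stand beside 0.572% of all genes that fell in the same fit. PGCC libraries without drug enter this comparison and also the one that chose the members, so the choice of members can itself favour a fall.

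The other members did not pass with the block in PGCC: TNFAIP3 was at -0.24 ± 0.07 (SE, adjusted p = 0.0749), BIRC2 at -0.16 ± 0.05 (adjusted p = 0.0851) and NFKB2 at -0.13 ± 0.04 (adjusted p = 0.064). NFKB2 was lower in 6 of 6 experiments. When replicates 4 and 5 were left out as well, 4 members fell, namely NFKBIA (-0.34, adjusted p = 0.000111), BIRC3 (-0.39, adjusted p = 0.00123), TNFAIP3 (-0.33, adjusted p = 0.00233) and BIRC2 (-0.20, adjusted p = 0.0483), beside 0.402% of all genes. The choice of members can favour a fall here too, and these replicates were left out after their values were seen. Nothing further is read from this count. RELA and RELB were at 0.02 ± 0.04 and -0.02 ± 0.06 with all replicates.

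In parental cells with the block, 115 genes passed (0.866%) and 0 of them were members. NFKBIA was at -0.21 ± 0.06 (SE, adjusted p = 0.138) and lower in 5 of 6 experiments. RELB was at -0.16 ± 0.07 (adjusted p = 0.374) and TNFAIP2 at -0.33 ± 0.13 (adjusted p = 0.311), each also lower in 5 of 6. The drug effect was therefore not shown to differ between populations: in the test of the interaction on all 24 libraries 0 of 14555 genes passed (0.0%), with 60 at an unadjusted p under 0.05, and neither DESeq2 nor the block gave a call. With the block the difference in drug effect, PGCC minus parental cells, was -0.08 for NFKBIA (95% interval -0.72 to 0.55) and -0.11 for BIRC3 (95% interval -1.19 to 0.97). This block was common to both populations. The differing population contrast of replicates 4 and 5 stayed in its error, so small differences in drug effect could not be seen. Without these replicates the blocked intervals were -0.37 to 0.25 for NFKBIA and -0.68 to 0.35 for BIRC3.

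**Figure D4:**
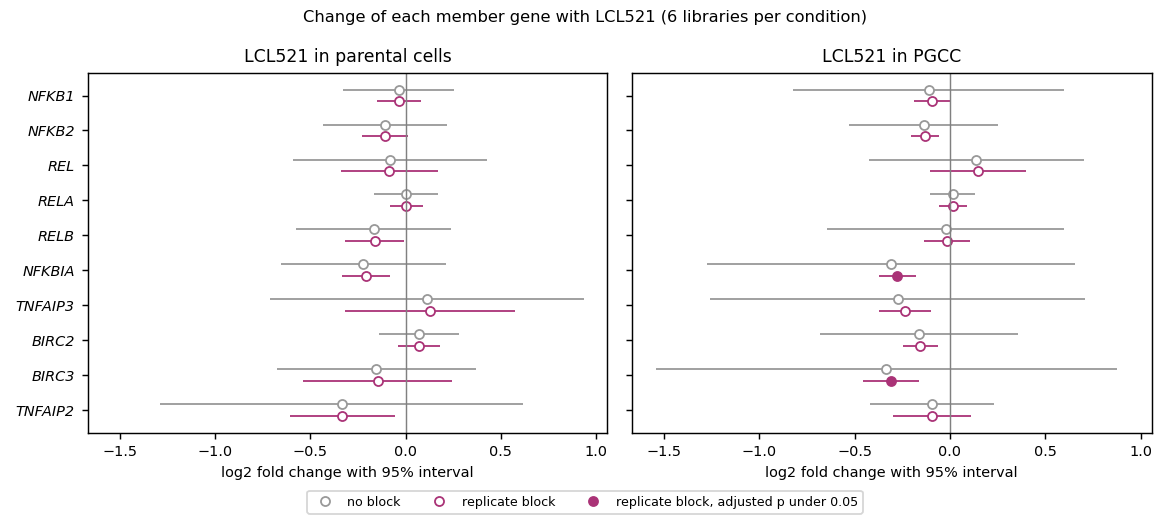
Log2 fold change of each member with LCL521 in parental cells (left) and PGCC (right), with 95% intervals, without a block (grey) and with the replicate block (purple). Filled points passed at an adjusted p under 0.05: NFKBIA at -0.28 and BIRC3 at -0.31 in PGCC with the block.

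Ordered by level per length, RELA (29.8 RPKM), NFKBIA (26.9) and NFKB2 (21.4) led in parental cells, followed by NFKB1 (12.04), BIRC2 (9.93) and RELB (7.34). REL (1.51), TNFAIP2 (0.964), TNFAIP3 (0.499) and BIRC3 (0.322) were the lowest. The ranges of neighbours in this order overlapped except between NFKB2 and NFKB1 and between RELB and REL. In PGCC the order was NFKBIA (64.3 RPKM), NFKB2 (47.6), RELA (28.9), RELB (15.2), BIRC2 (14.9), NFKB1 (13.5), TNFAIP3 (8.14), BIRC3 (6.36), REL (1.81) and TNFAIP2 (1.57). There the ranges were apart only between RELA and RELB. LCL521 left the order of the means as it was in both populations.

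The rest of the pathway was taken from lists of 80 genes by role, of which 56 passed the filter among the LCL521-treated libraries. Of these, 27 rose and 10 fell in PGCC, beside 25.0% and 23.9% of all genes tested, and the median log2 fold change was 0.31. With the replicate block 26 rose and 11 fell. All of the 56 but IL1A also passed the filter where parental libraries alone were fitted. IL1A is among the 27, and its call is not read as a test. The lists were chosen with earlier results of these data known, so these counts describe them and support nothing further.

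Only 2 of 10 ligand genes passed the filter, IL1B and IL1A, and both were higher in PGCC. IL1B, an interleukin that activates the canonical branch, was at 3.07 to 7.85 CPM in treated parental cells and 64.5 to 150.6 CPM in treated PGCC, a log2 fold change of 4.42 (adjusted p = 1.18e-08). IL1A, the related alarmin, had 0 to 4 counts per treated parental library and 18 to 44 counts per treated PGCC library. It passed the filter through PGCC alone, so no test of it is given. TNF, the ligand for which the pathway is best known, had at most 9 counts in any treated library and was not tested.

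The receptors and proximal signalling genes moved in both directions. Among 5 receptors tested, TLR4, the receptor for bacterial lipopolysaccharide, rose (1.70, adjusted p = 0.000342). TNFRSF1A, the main tumor necrosis factor receptor, and LTBR, a receptor of the non-canonical branch, fell (-0.70, adjusted p = 6.76e-06, and -0.50, adjusted p = 0.000656). Of 14 adaptors and ubiquitin ligases 2 rose, IRAK2 (1.22) and TRAF2 (0.44), and 3 fell, RBCK1 (-1.61) and RIPK1 (-0.39) the most. The median of this list was -0.10, and its shares of rises and falls were below those of all genes in this fit. With the replicate block 4 of the 14 fell, beside 3710 of 13818 genes.

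Among the 10 kinase genes 2 rose and 4 fell, beside 25.0% and 23.9% of all genes tested, and their median was -0.09. MAP3K14, the kinase of the non-canonical branch, was at a log2 fold change of 1.58 (adjusted p = 0.00383) and IKBKE at 1.20 (adjusted p = 0.00176). IKBKG, the regulatory subunit of the IkappaB kinase complex, was at -0.47 (adjusted p = 0.000986) and TBK1 at -0.45 (adjusted p = 0.00102).

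Of 10 further genes tested, a list of inhibitors and IkappaB family members, 6 rose, beside 25.0% of all genes tested. NFKBID (1.33, adjusted p = 0.00239) and NFKBIE (1.18, adjusted p = 0.00043), both of the IkappaB family, had the largest rises. TNIP2, a partner of the TNFAIP3 protein, fell (-0.36, adjusted p = 0.000924). In the list of other target genes 15 of 25 passed the filter, and 13 rose with the replicate block, beside 29.5% of all genes tested. Without the block 14 rose and 0 fell, beside 25.0% and 23.9% of all genes tested. The largest were IL8, a neutrophil chemokine, at 3.25 to 10.1 CPM in treated parental cells and 30.5 to 474.5 CPM in treated PGCC (5.23, adjusted p = 9.88e-06), and TRAF1, a signalling adaptor (3.32, adjusted p = 1.07e-05). IL8 showed the same low PGCC values in replicates 4 and 5, at 50.8 and 30.5 CPM, as most members did.

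Under LCL521 in PGCC no pathway gene passed without the block, and with it 7 of 59 fell and 0 rose, while 0.572% of all genes fell and 153 of 14151 rose. The lists were chosen with earlier results known, and PGCC libraries without drug enter this comparison, so the choice of genes can itself favour a fall. Nothing further is read from this count. The 7 pathway genes were IL1B (-0.27, adjusted p = 0.00097) and 6 target genes, of which CCL20, a chemokine (-0.57, adjusted p = 0.000684), PTX3, a secreted pentraxin (-0.49, adjusted p = 5.32e-05), and IL8 (-0.39, adjusted p = 2.18e-05) had the largest changes, named here after their values were seen. In parental cells with the block 2 of 55 fell, beside 46 of 13277 genes in all. The 2 were TNFRSF12A (-0.25, adjusted p = 0.0303) and PTX3 (-0.81, adjusted p = 0.0138), which were also named after their values were seen. PTX3 is the gene that fell in both populations.

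**Figure D5:**
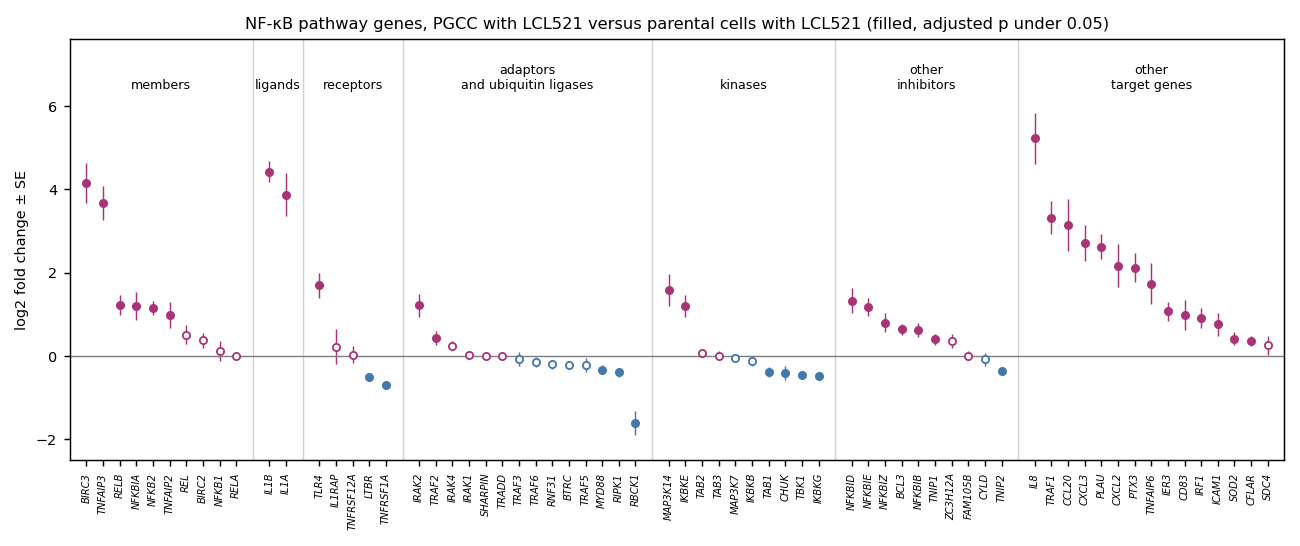
Log2 fold change ± SE of the members and of the pathway genes that passed the filter, PGCC with LCL521 against parental cells with LCL521, sorted within each list. Filled points passed at an adjusted p under 0.05. IL1A passed the filter through PGCC alone, and its point is not read as a test. The target genes and ligands lie above 0, up to 5.23 for IL8, while receptors, adaptors and kinases lie on both sides, down to -1.61 for RBCK1.

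The genes whose levels varied most like TNFAIP3 within conditions were found from deviations of log2 CPM from the condition means over the 24 libraries, among 14545 genes. Members left out, the nearest were SQSTM1 (Pearson's r = 0.92), an autophagy receptor, SLC30A1 (0.92), a zinc exporter, and NBPF1 (0.92). Among the members NFKBIA (0.93), which was nearer than any other gene, RELB (0.91) and NFKB1 (0.90) were the closest, and RELA was at -0.16. For NFKB2 the nearest were CSF2 (0.92), a cytokine and known target, CSRNP2 (0.89) and GATA6 (0.87). CSF2 was too low to pass the filter in either comparison of the populations or in parental cells alone. It passed only where both PGCC conditions were fitted, so its r is given as a description and supports nothing further. Much of this likeness follows replicates 4 and 5: over the other 16 libraries r with TNFAIP3 was 0.66 for SQSTM1, 0.62 for NFKBIA and 0.46 for RELB, and r with NFKB2 was 0.77 for CSF2. All these values come from the same libraries and share their depth and scaling.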

How the data were processed

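RNA-seq counts of 24 PPC1 libraries in 4 conditions were used. The authors deposited read counts per gene, not normalized, with gene length and coordinates. Reads were aligned with STAR and counted with HTSeq, and the submitters' processing notes name hg19. Every per-sample column was used. The 10 members and all gene lists were chosen with earlier results of these data known, from symbols and textbook roles.

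Counts were filtered with filterByExpr (minimum count 10, minimum total 15), scaled by TMM and tested with edgeR 4.0.16 in R 4.3.3 (quasi-likelihood test, Benjamini-Hochberg adjustment over all genes tested, threshold 0.05). Each comparison used the 12 libraries of its conditions and the interaction all 24. CPM carry TMM factors, RPKM are CPM divided by the deposited gene length in kilobases, and log2 CPM have a prior count of 2. The main fits had no block, since the methods name none. PGCC against parental cells without LCL521 has no p-value, since it chose the members. The filter and test were tested on simulated counts.

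Replicate numbers come from the labels, and the design text gives 6 independent runs with all conditions in parallel. Same-numbered libraries deviated together in every pair of the 4 comparisons, with correlations from 0.171 to 0.869. The best match had the same number for 6 of 6 libraries in each LCL521 comparison. It did for 5 of 6 between populations without the drug and for 3 of 6 between treated populations. The part of the split of replicates 4 and 5 in these correlations was not tested. Blocked values stand beside results they change. Libraries of a condition differed by more than counting error (chi-square per degree of freedom from 4.69 to 109.8 over 60 pairs). Counting intervals cover counting error only, and p-values measure the spread between the 6 runs.

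Named genes were all 10 members, the 2 largest rises and 2 largest falls past the threshold in each pathway list among treated libraries, members past the threshold with or without the block under LCL521, and the 3 genes nearest to TNFAIP3 and to NFKB2. Markers were given as counts and ranges, except where a value touched a result. Some marker genes are not reported here. Genes named outside this rule are marked in the text. Alternatives were DESeq2 1.42.0, the replicate block, scaling by RLE, by the upper quartile or by library totals, a fit without the filter, a joint fit of all 24 libraries, each replicate left out, replicates 4 and 5 left out with and without the block, and two-sided exact permutation tests for single members.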

Additional observations from a re-analysis of the deposited data

Results flagged for a closer look

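RELA in PGCC with LCL521 had 1 library far from the rest: replicate 3 was at 83.6 CPM and the other 5 lay between 92.4 and 95.9 CPM, a gap of 0.718 of the whole range. Replicate 3 was also the lowest in untreated parental cells (82.6 CPM) and untreated PGCC (84.1 CPM). In treated parental cells it was at 88.2 CPM, just above replicate 2 at 87.6 CPM. The gap was the only such case among 40 sets of 6 libraries (10 members in 4 conditions). Chance gives about 1 in 20, so this is no more than chance gives. Without that replicate the log2 fold change of RELA between treated populations was 0.013 in place of 0.0028.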

How the results depend on the processing

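Between treated populations, 6 members passed under every scaling, without the filter, with DESeq2 and with all 24 libraries in one fit. The count was 7 with the replicate block, 8 without replicates 4 and 5, 9 without them and with the block, and 6 to 7 when each replicate was left out. Under LCL521 in PGCC it went from 0 to 2 with the block, and to 4 with the block and without replicates 4 and 5. The block changed no other count of members. Replicates 4 and 5 were left out after their values were seen, so the counts without them are not read as tests. When the 12 treated libraries were divided in all 924 ways (exact permutation test, two-sided, 10 members), NFKB2, TNFAIP3 and BIRC3 reached the smallest p possible, 0.00216, RELB gave 0.00433, TNFAIP2 0.0108 and NFKBIA 0.0476. The divisions ignored the replicate number, which pairs the libraries, and these p-values were not adjusted for the number of members. The log2 changes that turned sign were all small and past no threshold. For RELA between treated populations they were -0.028 (DESeq2), -0.012 (RLE), -0.015 (upper quartile), -0.044 (no filter) and -0.024 (one fit), with -0.032 to 0.015 when each replicate was left out. For LCL521 in parental cells RELA was at -0.0015 (DESeq2), -0.0054 (one fit), -0.03 (without replicates 4 and 5) and -0.026 (the same with the replicate block), and at -0.017 to 0.019 with each replicate left out. TNFAIP3 was at -0.024 and -0.03 without replicates 4 and 5, without and with the block, and at -0.098 to 0.36 with each replicate left out, and NFKB1 at -0.077 to 0.012. In PGCC RELB was at -0.063 to 0.045. The interaction was 0.048 and 0.047 for NFKB2 without replicates 4 and 5, without and with the block, and -0.071 to 0.028 with each replicate left out. For RELA it was -0.0028 with library totals and -0.019 to 0.051 with each replicate left out. The cause was not tested. Depth limits TNFAIP3, BIRC3 and TNFAIP2 most, with as few as 10, 14 and 23 counts in a parental library.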
